A study of Caenorhabditis elegans with 6 samples.

Results

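Of the 21951 genes in the deposited count table of whole Caenorhabditis elegans, 18914 are protein-coding. Those that span 20 kb or more from the deposited start to the deposited end number 121 with enough reads to be tested and 1 without. These long genes were chosen by span alone, with no measured value. RNA came from whole wild-type animals, taken as egg-bearing young adults, and was selected on poly(A) tails for sequencing. The 3 control libraries came from animals without the compound and the 3 exposed libraries from animals given ethyl carbamate at 100 mM over 24 h, with replicates stated to be biological. The vehicle, the food and the meaning of the prefix EV in the library names are not given in the sources used here. Ethyl carbamate, or urethane, is a carcinogen of fermented foods whose metabolites form DNA adducts. The comparison asks whether genes that cover a long stretch of genome changed differently under such a compound from shorter genes of like level.

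RNA polymerase II copies a gene from its start to its end, introns included, so a long gene takes longer to transcribe and offers more DNA in which a lesion can stop the polymerase. Transcription-coupled repair removes lesions on which the polymerase stalls. In C. elegans, where most introns are short, the long genes include those of giant muscle proteins, cadherins and other adhesion proteins, ion channels and proteins of the synapse, many of which work in neurons and muscle.

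Gene counts summed to 19026133 to 22416213 in the control libraries and to 20176242 to 21258740 in the exposed libraries, and no library stood apart from its group. A gene was called at an adjusted p under 0.05 in the quasi-likelihood test of edgeR (Benjamini-Hochberg over 14705 tested genes), which called 76.3% of these genes, 40.0% higher and 36.3% lower in ethyl carbamate. The 121 tested long genes had mean control counts of 64.7 or more, so none passed the filter on low counts through the exposed libraries alone. The remaining gene was Y61B8A.6, with at most 1 read in any library. Its deposited span of 134154 bases (chromosome V, 17118155 to 17252309) stands against 398 bases in the WBcel235 annotation and an exonic length of 361 bases, so its length is uncertain and it enters no comparison. In that annotation 118 of the long genes also span 20 kb or more.

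The long genes shared a structure beyond their span. Their median exonic length was 4478.5 bases against 1127 bases for the 18792 shorter protein-coding genes, yet exons made up a median of 17.7% of the span against 61.6%. They held a median of 18 exons against 5, and the median of the longest intron was 7485 bases against 431. By the deposited coordinates, another gene lay wholly inside 65 of them, and 62 overlapped a gene on the opposite strand. Both counts include Y61B8A.6, whose span is uncertain. The strand setting of the counting is not given in the sources used here, so reads from exons that such a pair shares cannot be told apart. Overlap was taken over whole spans, introns included, and overlap of exons was not examined. Of the long genes named below and xrn-1, such an overlap of spans on opposite strands was found for xrn-1, sorb-1, cdh-1, unc-53, mig-10, unc-103, rbf-1, mua-3, unc-89, kcnl-1, kcnl-2, itr-1, ptp-3, daf-12, hmr-1, gap-2, daf-16, him-4, ppfr-1, gcn-1, herc-1, emb-4, unc-22, sax-7, teg-4, Y52B11A.4.

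Most long genes were higher in animals exposed to ethyl carbamate. Of the 121 tested, 81 rose, 22 fell and 18 did not pass the test, so 66.9% were higher and 18.2% lower, where the shares over all tested genes were 40.0% and 36.3%. At least a 2-fold rise was seen in 31 of the 121, near the share of 23.8% over all tested genes. At least a 4-fold rise was seen in 8 of the 121, a smaller share than the 9.5% over all tested genes. No long gene fell by 2-fold or more, a size reached by 3.34% of all tested genes, and the largest fall was 1.56-fold. In 80 long genes all 3 exposed libraries lay above all 3 control libraries, against 40.8% of all tested genes, and in 22 all 3 lay below, against 37.1%, so that the groups lay apart in 102 long genes, against 77.8% of all tested genes. Of the 81 that rose, 12 did so by less than 1.2-fold. RNA of whole animals was measured, so fewer cells of a type and less RNA per cell cannot be told apart in any of these values. The split depended on the scaling of the libraries: scaled by library size alone, which raised the median of all tested genes from 0.05 to 0.24 on the log2 scale, 97 long genes were higher and 12 lower. On quantile-normalized FPKM (reads scaled by exonic length and library size), with a median of all genes of −0.11, 51 of 120 were higher and 35 lower.

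Over the 121 genes the median log2 fold change was 0.41, against −0.03 over 13237 shorter protein-coding genes with a mean control count of at least 10. The share of all gene counts that fell on the long genes was 0.907%, 0.919% and 0.918% in the control libraries and 1.27%, 1.26% and 1.28% in the exposed libraries. The groups did not overlap, and the mean share was 0.915 ± 0.00679% in controls and 1.27 ± 0.00681% in exposed animals (SD, n = 3 each), a ratio of 1.39. As a share of summed FPKM, which divides by exonic length, the means were 0.244% and 0.333%, a ratio of 1.37.

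**Figure D1:**
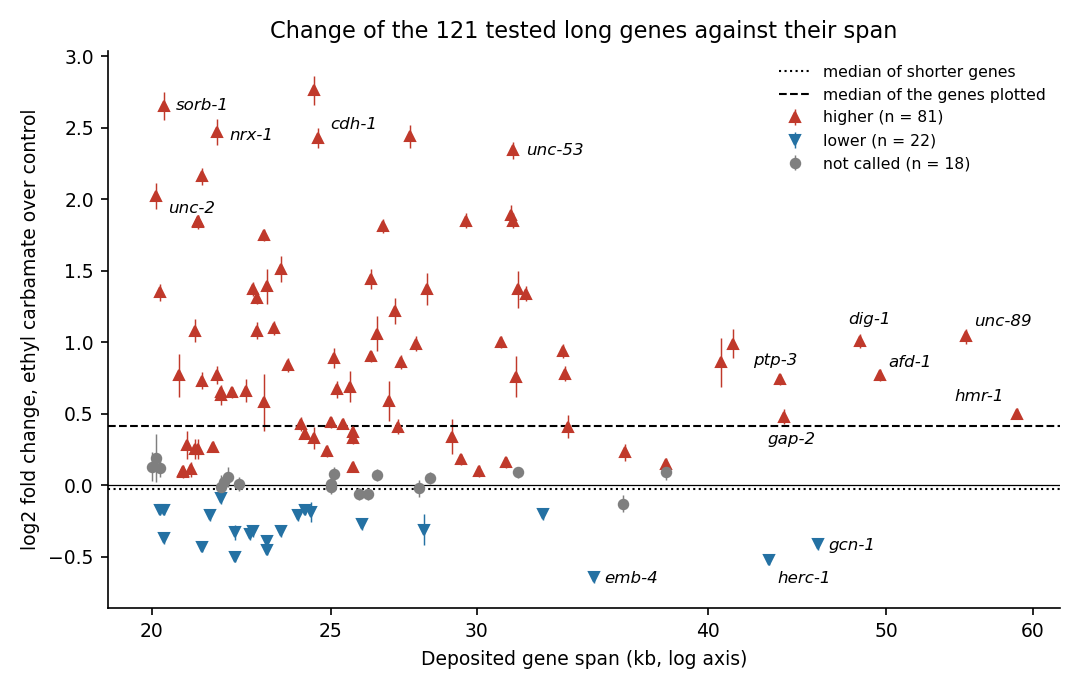
The log2 fold change of each of the 121 tested long genes (vertical axis) is plotted against its deposited span in kb (log axis). Bars are standard errors, back-calculated from the log2 fold change and the F statistic. Upward triangles are the 81 higher, downward triangles the 22 lower and circles the 18 not called. The points above the zero line outnumber those below it, no fall passes −0.64, and all rises of at least 4-fold lie at spans under 40 kb; the counts of higher and lower genes shift with the scaling of the libraries, to 51 and 35 on quantile-normalized FPKM.

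The difference from shorter genes was then taken among genes of like control level. Genes were binned by mean control count, since low genes rose and abundant genes fell in the table as a whole. At 100 to 300 control counts the median log2 fold change was 1.22 for 19 long genes and 0.36 for 2105 shorter genes. At 300 to 1000 counts the values were 0.77 for 33 long genes and −0.04 for 2530 shorter genes. At 1000 to 3000 counts they were 0.15 for 45 and −0.25 for 2852, and at 3000 counts or more −0.175 for 17 and −0.375 for 1654. In the lowest bin with long genes, 30 to 100 counts, the 7 long genes had a median of 0.77 and the shorter genes 0.62. In all 5 bins the long genes thus had the higher median, and the mean of the differences weighted by the number of long genes was 0.54 on the log2 scale, or 1.45-fold. Taken library by library against the control mean, the same weighted difference was 0.01, 0.012 and −0.014 in the controls and 0.522, 0.525 and 0.555 in the exposed libraries.

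Exonic length moved with this difference. A count grows with exonic length, so a long gene of the same count has a lower level per kb. Binned by control count per kb of exon, the weighted difference was 0.24. Against shorter genes with at least 2 kb of exon, still binned by count, it was 0.27. With both together, an alternative chosen after seeing the data, it was 0.04. Left out in turn, the bins with under 20 long genes gave 0.06 (without 3 to 10 counts per kb, 1 gene), 0.07 (without 10 to 30, 9 genes) and 0.03 (without 1000 or more, 7 genes). In that last comparison the long genes had the higher median in the bins from 100 counts per kb up, such as 0.02 against −0.18 at 300 to 1000 (40 long genes), and the lower median below, such as 1.07 against 1.12 at 30 to 100 (34 long genes). The 148 tested shorter genes with 6 kb of exon or more had a median log2 fold change of 0.41, with 98 higher and 39 lower, beside the median of 0.41 of the long genes. Under 20 kb the median also stepped up from span class to span class, from −0.14 below 2 kb (5605 genes) to 0.02 at 2 to 5 kb, 0.15 at 5 to 10 kb and 0.27 at 10 to 20 kb (587 genes), while the median exonic length stepped from 850 to 3047 bases. It was 0.35 for the 92 genes of 20 to 30 kb and 0.74 for the 29 genes of 30 kb or more, whose median exonic lengths were 4414 and 4655 bases. The parts of span, exonic length and level in the difference cannot be told apart beyond these matched values.

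**Figure D2:**
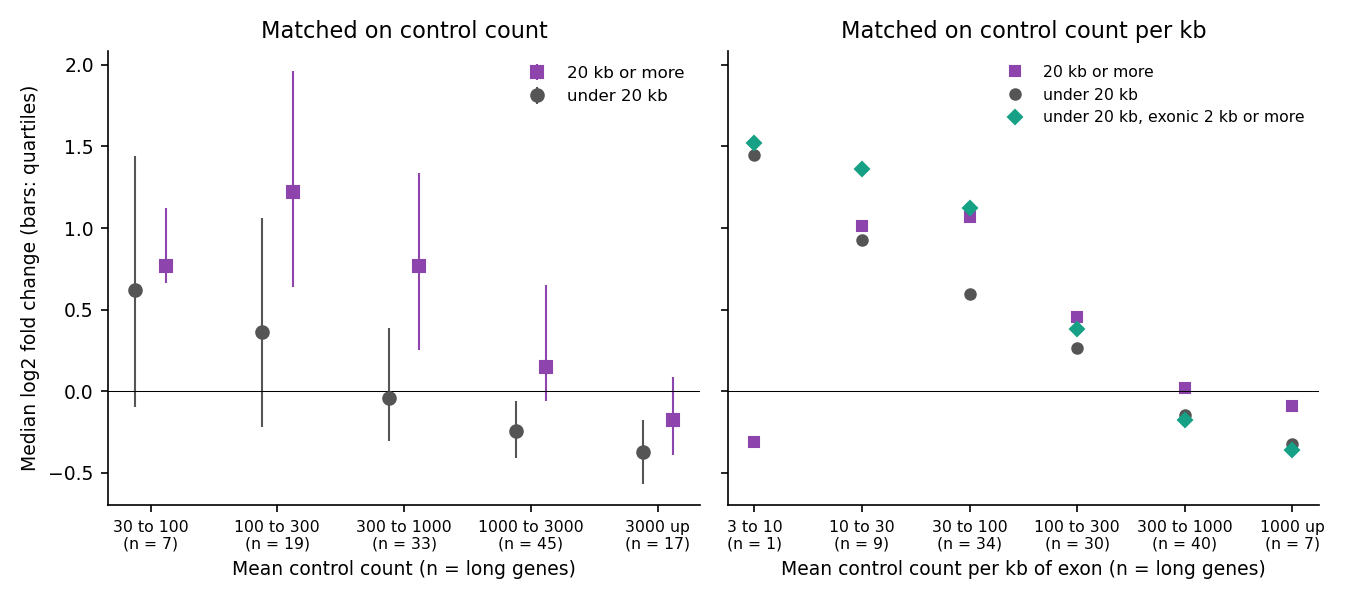
Median log2 fold changes are shown for long genes (squares) and shorter genes (circles) in bins of mean control count at left, with bars for the quartiles, and in bins of control count per kb of exon at right, where diamonds are shorter genes with at least 2 kb of exon. At left the squares lie above the circles in all 5 bins; at right they lie near the diamonds at 30 to 100 (1.07 and 1.12) and 100 to 300 counts per kb (0.45 and 0.38), below them in the lower bins and above them in the higher ones.

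**Figure D3:**
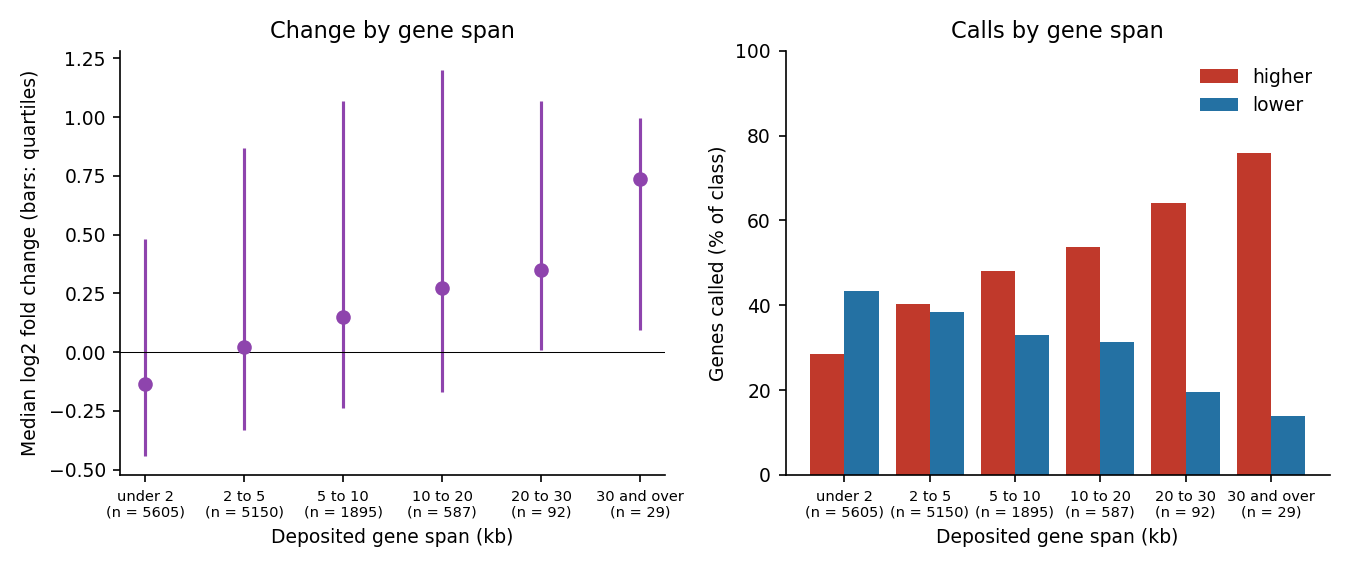
For protein-coding genes with a mean control count of at least 10, the left panel gives the median log2 fold change with quartiles by class of deposited span, and the right panel the percentage of each class called higher or lower. From the shortest to the longest class the median goes from −0.14 to 0.74, and the share called higher from 28.5% to 75.9% with the scaling of the main test.

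Level and span of the long genes can also be read gene by gene. Among the 44 with a mean control FPKM under 5, 39 rose and 1 fell, with a median log2 fold change of 1.05. Among the 41 at 5 to 20 FPKM, 29 rose and 4 fell (median 0.33), and among the 36 at 20 FPKM or more, 13 rose and 17 fell (median −0.08). The control level enters both the grouping and the fold change here. The 10 genes with a deposited exonic length of at least 50% of deposited span had a median of 0.92 (8 higher, 1 lower). The 49 whose longest annotated intron is 10 kb or more had a median of 0.50 (35 higher, 6 lower). These groups can share genes, since cpna-2 has an exonic length of 85.7% of its deposited span and an annotated intron of 20.1 kb. The 51 long genes that no other gene overlaps had a median of 0.18 (29 higher, 10 lower), and the 70 tested genes with an overlapping gene a median of 0.62 (52 higher, 12 lower). Their median control counts were 1310 and 740, and without the overlapped genes the weighted difference from shorter genes of like count was 0.535. By chromosome the median ran from 0.09 for the 29 genes on chromosome I to 0.89 for the 13 on chromosome II. The shorter genes on those chromosomes had medians of −0.15 and −0.08.

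Most of the longest genes rose in the main test: apart from Y61B8A.6, 8 of the 10 tested genes of 40 kb or more rose, against 40.0% of all tested genes. On quantile-normalized FPKM hmr-1, unc-89, afd-1 and ptp-3 were still higher and gcn-1 and herc-1 lower. There dig-1, gap-2, F54G2.1 and kcnl-1 were not called. The longest was hmr-1 (W02B9.1, chromosome I, 11075891 to 11134667, minus strand), which encodes the classical cadherin of epithelial junctions. It stood at 333, 331 and 325 CPM (counts scaled to library size) in the controls and at 466, 475 and 457 CPM in exposed animals. All exposed values lay above all control values, a 1.41-fold rise (log2 fold change 0.50, standard error 0.04, edgeR adjusted p = 1.48e-10). The afadin gene afd-1 (W03F11.6, chromosome I, 2160042 to 2209635), whose product links junctions to actin, stood at 116, 111 and 114 CPM and at 193, 196 and 192 CPM, again without overlap (1.70-fold higher, edgeR adjusted p = 1.05e-13). The receptor phosphatase gene ptp-3 rose 1.66-fold, the Ras GTPase-activating protein gene gap-2 1.39-fold, and F54G2.1, whose role is not stated here, 1.98-fold. The other 2 fell: gcn-1 (chromosome III, 2151968 to 2197909), the homolog of the translational regulator GCN1, fell 1.33-fold, and herc-1 (chromosome I, 1211490 to 1254671), a HERC-family gene, fell 1.43-fold.

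Long genes of muscle rose. All 5 on the list of sarcomere and muscle attachment genes were higher, with a median log2 fold change of 1.04 (4 of 5 on quantile-normalized FPKM), as were 46 of the 52 tested genes of the whole list. The giant M-line protein gene unc-89, an obscurin homolog (C09D1.1, chromosome I, 4035744 to 4090961), stood at 65.2, 72.0 and 71.9 CPM in controls and at 154, 137 and 140 CPM in exposed animals. The groups lay apart, with a log2 fold change of 1.04 (standard error 0.05, edgeR adjusted p = 7.38e-14). The twitchin gene unc-22, with exons over most of its span, went from 62.1, 59.5 and 62.1 to 117, 103 and 109 CPM, 1.79-fold higher. The gene sorb-1 (Y45F10D.13, chromosome IV, 13750336 to 13770607), for the sorbin and SH3 domain protein of muscle attachment sites, had 4.82, 5.69 and 6.61 CPM in controls and 38.8, 33.5 and 36.5 CPM in exposed animals. Its 6.29-fold rise (log2 2.65, standard error 0.10, edgeR adjusted p = 1.28e-15) was the largest among long genes with a gene name and no overlap between groups. By sequence name alone, Y52B11A.4 had the largest rise of all, 6.76-fold, and was picked out after its value was seen. The epidermal attachment gene mua-3 rose 2.11-fold.

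Long genes of the synapse were few and all higher. The neurexin gene nrx-1 (C29A12.4, chromosome V, 10825024 to 10846685), for a presynaptic adhesion protein, stood at 5.28, 5.30 and 4.74 CPM in controls and at 29.3, 27.7 and 27.7 CPM in exposed animals. The gap between the groups was wide, a 5.53-fold rise (log2 2.47, standard error 0.09, edgeR adjusted p = 1.13e-15). The synaptic vesicle priming gene unc-13 rose 3.72-fold and the rabphilin gene rbf-1 2.59-fold. These 3 genes were also higher under each scaling tried, and 40 of the 45 tested genes of the list of synaptic release genes rose.

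All 7 long genes on the ion channel lists rose in the main test. The gene unc-2 (T02C5.5, chromosome X, 2716164 to 2736277), for the presynaptic voltage-gated calcium channel, went from 12.3, 15.2 and 13.4 CPM to 62.7, 53.9 and 50.2 CPM. The exposed libraries all lay far above the controls, by 4.07-fold (log2 2.02, standard error 0.09, edgeR adjusted p = 1.23e-14). The ryanodine receptor gene unc-68, which releases calcium in muscle, rose 2.15-fold, and the inositol trisphosphate receptor gene itr-1 1.70-fold. Of the potassium channels, the ERG-type unc-103 rose 2.85-fold, the small-conductance kcnl-1 and kcnl-2 rose 1.82-fold and 1.69-fold, and egl-23 rose 1.49-fold. The last 3 had mean levels under 5 CPM in controls. On quantile-normalized FPKM unc-103 was still called higher (log2 0.66), while kcnl-1, kcnl-2 and egl-23 were not called, at −0.02, −0.05 and −0.23. Of the calcium channels, unc-2 (1.18) and unc-68 (0.35) stayed higher there, and itr-1 was not called (0.13).

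Adhesion and guidance genes made up the largest group by role, with 10 long genes on the list of cadherins, immunoglobulin and other adhesion proteins. All 10 rose, the median being 0.66 on the log2 scale, while 38 of the 42 shorter genes of the list rose (median 1.41), and on quantile-normalized FPKM 6 of the 10 were higher and 1 lower. The cadherin gene cdh-1 (R10F2.1, chromosome III, 2910970 to 2935606) had 10.5, 10.2 and 11.2 CPM in controls and 56.4, 56.9 and 59.0 CPM in exposed animals. The libraries of a group lay close together, and the rise was 5.40-fold (log2 2.43, standard error 0.07, edgeR adjusted p = 9.13e-18). At the other end of the list were sax-7, the L1-type cell adhesion gene, 1.06-fold higher, and the hemicentin gene him-4, which rose 1.17-fold by edgeR and did not pass with DESeq2 or on log2 FPKM. The giant matrix gene dig-1 (K07E12.1, chromosome III, 6746308 to 6794753), which keeps neurons in position, has 39869 bases of exon. It went from 33.6, 36.3 and 37.7 to 76.1, 69.9 and 70.7 CPM, 2.01-fold higher, with no overlap. Because of its exonic length, its level per kb stayed low, at 0.919 and 1.78 FPKM.

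All 4 long genes of the axon guidance and Wnt list rose, with a median of 1.27, and 3 of 4 did on quantile-normalized FPKM. In the main test 43 of the 58 tested genes of the whole list rose. The neuron navigator gene unc-53 (F45E10.1, chromosome II, 11058106 to 11089456), which acts in cell and axon migration, stood at 15.9, 16.2 and 14.0 CPM in controls and at 81.6, 75.8 and 75.5 CPM in exposed animals. The groups did not overlap, and it rose 5.06-fold (log2 2.34, standard error 0.06, edgeR adjusted p = 9.03e-18). The lamellipodin-family gene mig-10 rose 3.51-fold and the plexin gene plx-1 1.18-fold, the last not called on quantile-normalized FPKM (log2 −0.08). Among receptor and growth signalling genes, the protein tyrosine phosphatase gene ptp-1 (C48D5.2, chromosome III, 3590734 to 3611993) went from 14.9, 14.2 and 14.3 to 65.9, 64.2 and 64.2 CPM, 4.48-fold higher (log2 2.16, standard error 0.06, edgeR adjusted p = 9.52e-18). The insulin receptor gene daf-2 (Y55D5A.5) stood at 137, 133 and 134 CPM in controls and at 142, 132 and 136 CPM in exposed animals, overlapping, with a log2 fold change of 0.02 (standard error 0.04). It was called higher with library-size scaling (0.21) and lower on quantile-normalized FPKM (−0.14), while ptp-1 and ptp-3 were higher under both. Its downstream FOXO transcription factor gene daf-16 (R13H8.1, chromosome I, 10750343 to 10776039), from 140, 138 and 140 to 175, 175 and 174 CPM, rose 1.25-fold.

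**Figure D4:**
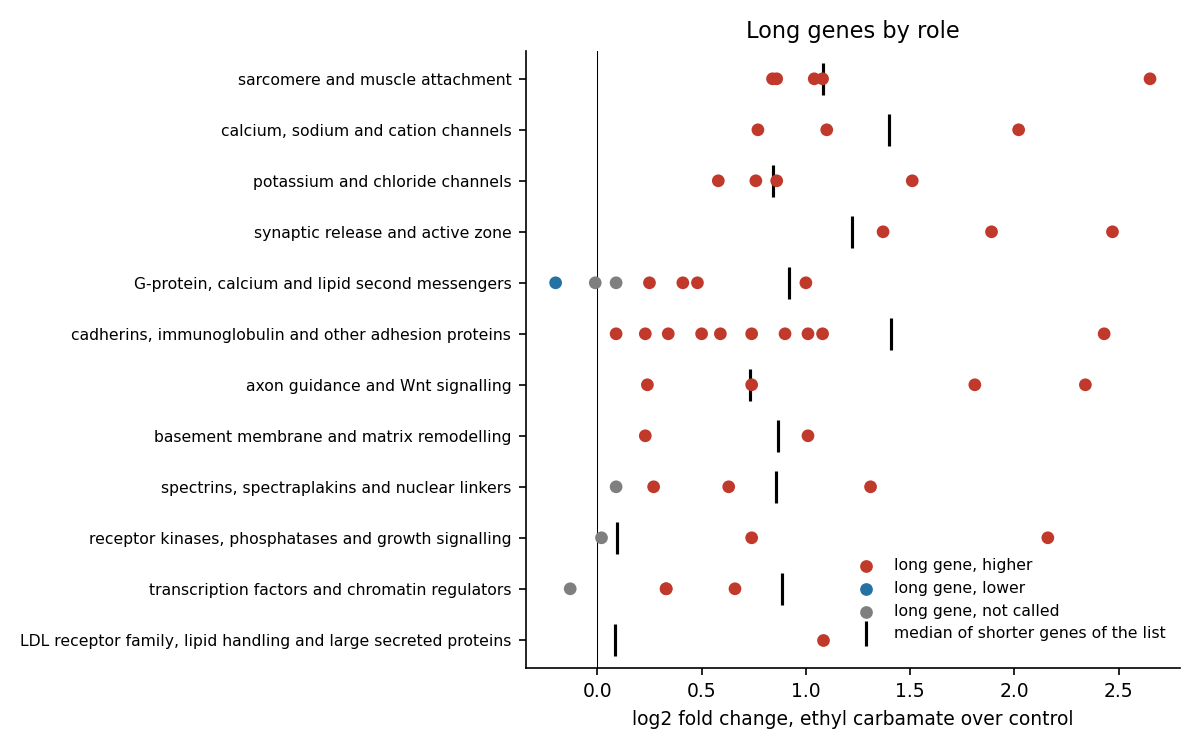
Each point is a long gene on a role list, placed by its log2 fold change and coloured by its call (red higher, blue lower, grey not called), and the black bar is the median of the shorter genes of the same list; a gene on several lists appears in each, and lin-1 and daf-16 share 1 position. Every adhesion, muscle, channel and synaptic gene shown lies right of zero in the main test, while on quantile-normalized FPKM the medians of the long genes of the potassium channel, second messenger, basement membrane, spectrin and transcription factor lists lie below zero.

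The remaining role lists were mixed. Of 7 long genes for second messengers, 4 rose, 1 fell and 2 did not pass, and the median was 0.25, or −0.13 on quantile-normalized FPKM. The catalytic subunit gene of protein kinase A, kin-1, rose 2.00-fold, and the phosphodiesterase gene pde-3 1.33-fold. The gene egl-4, for the cGMP-dependent protein kinase, fell 1.15-fold and was the only listed long gene called lower in the main test. It was not called with library-size scaling (log2 −0.01) or on quantile-normalized FPKM (0.02). Of 4 long genes for spectrins and nuclear linkers, unc-83, which ties nuclei to kinesin, rose 2.48-fold, the myosin gene hum-7 1.54-fold and the FERM domain gene frm-1 1.21-fold, and the giant nuclear anchor gene anc-1 had a log2 fold change of 0.09 (edgeR adjusted p = 0.0913). On quantile-normalized FPKM 1 of these 4 was higher and anc-1 was lower (−0.55), while with library-size scaling all 4 were higher. Of 4 transcription factor genes, the nuclear receptor gene daf-12 rose 1.58-fold and the ETS factor gene lin-1 1.26-fold, while the CREB gene crh-1 had a log2 fold change of −0.13 (edgeR adjusted p = 0.0659); on quantile-normalized FPKM 1 of the 4 was higher and crh-1 was lower (−0.25). The long genes on the basement membrane list were dig-1 and him-4. Both were higher in the main test, as were 31 of the 37 tested genes of the whole list. On quantile-normalized FPKM dig-1 was not called and him-4 was lower.

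All falls but that of egl-4 came from long genes on no role list. The lists were chosen with earlier results of these data known, so the split is a description only. Of the 44 listed long genes, 38 rose and 1 fell, and of the 77 tested unlisted ones 43 rose and 21 fell. The median was 0.75 for the listed and 0.16 for the unlisted long genes, while it was 0.74 for 745 shorter genes on the lists and −0.05 for 12492 tested shorter genes on none. The 22 long genes that fell had a median control level of 28.5 FPKM, against 5.7 FPKM for the 81 that rose. The largest fall was in emb-4 (Y80D3A.2, chromosome V, 18860300 to 18894976), the homolog of the intron-binding helicase AQR. It drew 3363, 3980 and 4086 reads in the control libraries and 2642, 2775 and 2778 in the exposed ones, or 192 ± 0.724 and 123 ± 0.96 CPM (SD, n = 3 each). The libraries within a group were nearly equal per library size and the groups lay apart, and the gene fell 1.56-fold (log2 −0.64, standard error 0.04, edgeR adjusted p = 1.14e-12).

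The other falls named by the rule were also of genes with high levels. The phosphatidylinositol kinase gene pifk-1A (Y75B8A.24, chromosome III, 12251492 to 12273699) went from 168, 167 and 172 to 124, 117 and 118 CPM, 1.41-fold lower. The microtubule-associated serine/threonine kinase gene kin-4 (C10C6.1, chromosome IV, 11425742 to 11447065) went from 290, 270 and 270 to 202, 209 and 206 CPM, 1.35-fold lower. In both the groups lay apart. The protein phosphatase 4 regulatory subunit gene ppfr-1 (F16A11.3, chromosome I, 9366554 to 9389635) fell 1.31-fold, from 180, 182 and 169 to 132, 134 and 139 CPM. After the values were seen, long genes for RNA synthesis and processing were looked up. The cleavage and polyadenylation factor gene cpsf-1 fell 1.16-fold and the splicing factor gene teg-4 and the hnRNP U-type gene hrpu-2 fell 1.13-fold each. With library-size scaling none of these 3 was called (log2 −0.02, 0.02 and 0.02), and on quantile-normalized FPKM cpsf-1 alone was lower. The TFIID subunit gene taf-1 had a log2 fold change of −0.06 (edgeR adjusted p = 0.183), and rpoa-1, for the largest subunit of RNA polymerase I, rose 1.35-fold; with library-size scaling taf-1 was called higher (0.13), and on quantile-normalized FPKM it was lower (−0.26) and rpoa-1 was not called. The DNA damage kinase gene atm-1 (Y48G1BL.2), itself a long gene, had 75.4, 72.2 and 65.4 CPM in controls and 71.5, 75.6 and 77.9 CPM in exposed animals, overlapping (log2 0.08, edgeR adjusted p = 0.159), and was called higher with library-size scaling (0.27) and lower on quantile-normalized FPKM (−0.41).

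**Figure D5:**
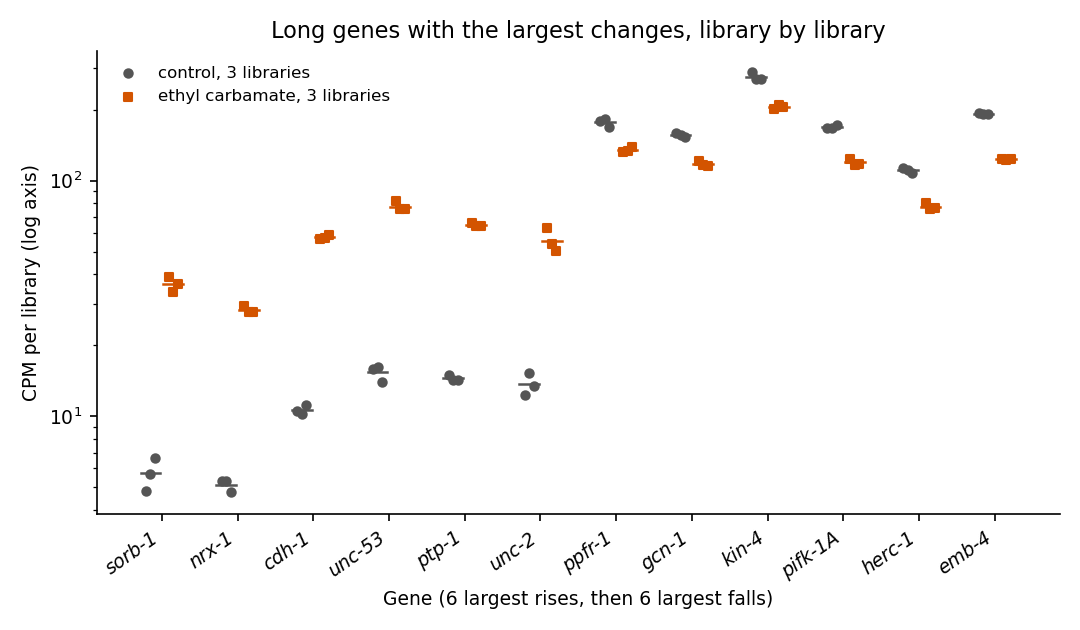
Each library's CPM (log axis) is shown for the 6 largest named rises and the 6 largest named falls, with control libraries as circles, exposed libraries as squares and a line at each group mean. The groups do not overlap in any of the 12 genes, and the genes that fell start from control levels of 108 to 290 CPM against 4.74 to 16.2 CPM for those that rose.

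The genes on either side of the 20 kb limit by deposited span are given as a description. Just inside were mrp-8 (20008 bases), npr-37 (20055 bases) and unc-2 (20113 bases), with log2 fold changes of 0.13, 0.19 and 2.02, of which only unc-2 was called. Just outside were lrp-1 (19967 bases), the megalin homolog, at 1.09, xrn-1 (19943 bases), a 5′ to 3′ exoribonuclease gene, at −0.13, and prp-6 (19878 bases), a splicing factor gene, at −0.15, all 3 called. With library-size scaling xrn-1 stood at 0.06 and prp-6 at 0.04, and on quantile-normalized FPKM mrp-8 stood at −0.52, npr-37 at −0.48 and prp-6 at 0.04. In the WBcel235 annotation unc-2 spans 52606 bases and is not near the limit, while npr-37 (19968 bases) and xrn-1 (20970 bases) change side. Deposited spans miss some long genes. The titin homolog ttn-1 is listed with 4099 bases against 81.7 kb in that annotation, although its deposited exonic length is 56600 bases. By the annotation 198 protein-coding genes span 20 kb or more, of which 135 rose and 35 fell. Of the 135, 4 had mean control counts of only 1.39 to 7.39 and passed the filter through the exposed libraries, and among the 192 with control counts of at least 10, 131 rose and 35 fell; their median was 0.58 on the log2 scale and the weighted difference from shorter genes 0.62.

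The machinery that carries polymerase through a gene was measured by genes that are all shorter than 20 kb by deposited span. Among them the Integrator gene ints-3 spans 26.2 kb in the WBcel235 annotation, and it fell (log2 −0.36). Of 40 tested genes for elongation factors, Integrator, RNA polymerase II subunits and topoisomerases, 36 fell and 2 rose, with a median log2 fold change of −0.35. Their median control count was 2080, and shorter genes of 1000 to 3000 control counts had a median of −0.25, with 70.1% called lower. The polymerase II large subunit gene ama-1 went from 390 to 324 CPM, the histone chaperone gene spt-16 of the FACT complex from 489 to 338 CPM, and both topoisomerase genes, top-1 and top-2, fell, by 0.23 and 0.43 on the log2 scale. Of 22 tested genes for transcription-coupled and nucleotide excision repair, 17 fell and 1, the translesion polymerase gene rev-3, rose. Their median was −0.29 at a median control count of 1390, which falls in the same bin of 1000 to 3000 counts. Among them csb-1, the Cockayne syndrome B homolog that recognises stalled polymerase, fell by 0.59 on the log2 scale. With library-size scaling 24 of the 40 and 9 of the 22 were lower, and on quantile-normalized FPKM 29 and 19.

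Marker genes of whole tissues moved as well, none of them a long gene by deposited span. The neuronal marker unc-7 spans 26.9 kb in the WBcel235 annotation and rose 5.67-fold. Of 23 tested neuronal markers 21 were higher, and their summed level was 702 to 732 CPM in controls and 1020 to 1080 CPM in exposed animals. Of 16 body wall muscle markers 14 were higher (4110 to 4350 and 6840 to 7210 CPM), and of 12 pharyngeal markers 10 (356 to 384 and 850 to 923 CPM). Over all tested genes 40.0% were higher. The neuron, muscle and pharynx lists had median control counts of 264, 4880 and 341. Of the shorter genes in the bins that hold these counts, 53.9%, 10.5% and 35.5% were higher. Of 24 germline markers 22 were lower, with sums of 17900 to 19500 CPM in controls and 13700 to 14000 CPM in exposed animals. The germline markers are abundant, with a median control count of 8100 and a median log2 fold change of −0.43, and of the shorter genes with 3000 control counts or more 82.0% were lower, with a median of −0.375. The intestine list had 10 of 17 higher and 5 lower, although its summed level was lower in exposed animals (33600 to 35900 and 26600 to 28900 CPM). The epidermis list had 8 of 13 higher and 4 lower (711 to 775 and 2120 to 2240 CPM), the glia list 4 of 8 higher and 1 lower (146 to 148 and 164 to 172 CPM), and the coelomocyte list 4 of 5 higher and 1 lower (131 to 135 and 150 to 154 CPM). No marker was at 0 in all libraries, and in each list the direction with more calls was the same with library-size scaling and on quantile-normalized FPKM. The part of tissue composition in the change of the long genes was not tested.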

How the data were processed

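The 6 libraries, 3 control and 3 ethyl carbamate by the treatment label, hold paired reads of 150 bases from RNA selected on poly(A), per the series design text. Raw counts are whole numbers of reads per gene, as the authors deposited them, and the deposited FPKM values stand beside them. The deposited normalized counts (a signal divided by 1 size factor per library), log2 fold changes and p-values of the authors were made before deposit and were not used. Tools named in the submitters' processing notes are HISAT2 (2.0.5) for the reads, StringTie (1.3.3), DESeq2 (1.20.0) and featureCounts (1.5.0-p3); the design text has DEGSeq. Genome build and strand setting: not given in the sources used here. Deposited coordinates and exonic lengths were used as listed for the 122 genes, and 73 of these have both ends within 200 bases of WBcel235 (Ensembl annotation). That annotation gave exons and introns, while nested and overlapping genes were counted from the deposited coordinates.

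edgeR 4.0.16 (R 4.3.3) was run with TMM scaling, filterByExpr and the two-sided quasi-likelihood F test, no covariate, Benjamini-Hochberg over 14705 genes, after a check on simulated data. CPM used TMM-scaled library sizes. Libraries averaged 20984903 counts. The standard error, which gives each gene's approximate precision, is the absolute log2 fold change divided by the square root of F. The p-values weigh the difference between the groups against the spread among these libraries. Alternatives used DESeq2 1.42.0, limma 3.58.1, other scalings, filters, spans and matchings, and each library left out. Medians over genes are descriptions without a test. Named genes are the 10 longest, the 6 largest rises and falls with a gene name, no overlap between groups and at least 1 FPKM, up to 3 called per role list, and 3 on either side of the limit; others were added for a role after their values were seen. RefSeq symbols matched 121 of the 122. The genes, the 16 role lists and the 8 marker lists were chosen with earlier results of these data known. Figures used matplotlib 3.10.9.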

Additional observations from a re-analysis of the deposited data

How the results depend on the processing

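The count of higher long genes stayed between 73 and 80 and that of lower ones between 19 and 22 with any single library left out, and their median log2 fold change between 0.385 and 0.434. The median was 0.376 with median-ratio scaling, 0.601 with library-size scaling (12 lower), 0.359 with DESeq2, 0.435 for genes of at least 5 FPKM, 0.363 from a control count of 100, and 0.351, 0.364 and 0.311 with limma on log2 FPKM plus 0.5, 0.1 and 1, where it understates low genes. After quantile normalization of FPKM it was 0.0406, with 51 higher and 35 lower. The weighted difference from shorter genes was 0.499 and 0.455 with pseudocounts of 0.5 and 1, 0.23 after quantile normalization, 0.563 from a control count of 100, 0.469 without listed genes (median 0.157), 0.239 per kb of exon, 0.269 against shorter genes with 2 kb of exon, and 0.0418 with both, the last added after seeing the data. At 10 kb there were 403 higher and 206 lower genes, with a median of 0.292. The difference was 0.514 and the log2 share ratio 0.35. Some of the 403 had control counts under 10 and passed the filter through the exposed libraries. The median and the difference leave those genes out. At 30 kb there were 22 higher and 4 lower genes, with a median of 0.735 and a share ratio of 0.517. Without overlapped genes these were 29 and 10, 0.176 and 0.407, with a matched difference of 0.535, and the share of summed FPKM gave 0.45. With spans from WBcel235, also added after seeing the data, they were 135 and 35, 0.577, a difference of 0.618 and a share ratio of 0.548. The causes of these shifts were not tested.

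Of the values under alternatives for genes named by the rule, 676 kept direction and call, 12 lost the call, 1 gained it and 12 turned direction. Genes added after their values were seen are outside this tally. Some of them turned direction on quantile-normalized FPKM, such as anc-1 (0.09 to −0.55) and atm-1 (0.08 to −0.41). Others, such as unc-22 and sax-7, kept it. The following values are of genes named by the rule. On quantile-normalized FPKM the log2 fold change was −0.02 for kcnl-1, −0.05 for kcnl-2, −0.18 for pde-3, −0.43 for him-4, −0.07 for hum-7, −0.04 for frm-1, −0.12 for lin-1, −0.52 for mrp-8, −0.48 for npr-37 and 0.04 for prp-6. With library-size scaling it was 0.06 for xrn-1 and 0.04 for prp-6. Equal replicate numbers did not pair the libraries: correlations of deviations ran from −0.012 to 0.011 over all pairs of a control and an exposed library. With the replicate number as a block 81 long genes were higher and 23 lower. Depth limits the lowest genes, where kcnl-1, kcnl-2 and egl-23 had standard errors of 0.14 to 0.20.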

Other observations

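Genes whose deposited span is under 20 kb but whose WBcel235 span is 20 kb or more were counted separately. Of 80 such protein-coding genes 78 were tested, and 4 of these, all called higher, had control counts under 10 and passed the filter through the exposed libraries. Of the other 74, 51 were higher, 13 lower and 10 not called, and their median was 0.815 on the log2 scale. The share called higher over all tested genes was 40.0%. Among them the titin homolog gene ttn-1 rose 2.89-fold, the spectraplakin gene vab-10 2.40-fold, the perlecan gene unc-52 3.35-fold, the dystrophin gene dys-1 2.62-fold and the active zone gene cla-1, which overlaps a gene on the opposite strand, 7.99-fold. The cytochrome c oxidase subunit gene cox-6B fell 1.34-fold, and the nucleoporin gene npp-8 fell 1.36-fold. These genes were picked after their values were seen. In the deposited table, 360 genes have an exonic length greater than their span, and 9 have an end before their start.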
